A study of Mus musculus with 13 samples.

Results

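Haptoglobin, hemopexin and most of the other genes described here deal with hemoglobin and heme in blood and liver, and the set also holds Apol9a and Apol9b. The set held 10 genes: Hba-a1, Hbb-bt, Alas2, Hp, Hpx, Hmox1, Cd163, Lrp1, Apol9a and Apol9b. They were found by their symbols in the deposited liver table, where all 10 were present among 11779 listed genes. The symbols had been chosen by the authors' fold changes and p-values between the liver groups, and these columns of the authors' own comparison were neither used nor tested here.

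Liver RNA came from Balb/c mice, 3 in the Liver Luc ASO group and 3 in the Liver LL35 ASO group, collected 5 days after injection. An ASO is an antisense oligonucleotide that leads to cleavage of the RNA it pairs with. The LL35 group was given a mix of 5 ASOs against the long non-coding RNA LL35 (Falcor), each conjugated to GalNAc, a sugar ligand that hepatocytes take up, and the controls a GalNAc-conjugated ASO against firefly luciferase, which mice do not carry. The number of ASOs is that of the labels, and the study's list of ASOs for mice shows fewer. The labels give 150 mg/kg for each LL35 ASO, whereas the methods of the study give this dose as the total of the mix. Libraries of 3 AML12 Luc ASO and 4 AML12 LL35 ASO cultures (AML12 is a mouse hepatocyte line, sampled on day 2) were not analysed here.

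The only measurement used is the authors' mean normalized count of each gene, averaged over the compared liver libraries of both groups. This value has no spread between mice and no separate value for either group, so no error, interval or test stands beside any level, and the effect of the LL35 ASOs on these genes was not measured here. Sequencing depth per mouse is unknown. The lowest mean normalized count among the listed genes was 15.6. Why other genes are not listed is not given in the sources used here, so absence from the list is no measure of a level. The share of all annotated genes that were listed was not worked out, so counts of listed genes are not read as results. The symbol of LL35, 9030622O22Rik, had 0 rows among the listed genes. A mean over both groups could not show its knockdown in any case. Levels of different genes were compared per kilobase of exon, with exon lengths from GENCODE M21, and other length scales are named where they are used.

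Free hemoglobin released from red blood cells is bound in plasma by haptoglobin, and CD163 is a macrophage receptor that takes up hemoglobin. Heme that has left hemoglobin is bound by hemopexin, and this complex is taken up through LRP1, a large endocytic receptor. Inside cells, heme oxygenase 1 opens the heme ring to give biliverdin, iron and carbon monoxide. The APOL9 proteins belong to the apolipoprotein L family, whose genes are known to respond to interferon.

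In the reference transcripts the globin and Apol9 genes have near-identical copies, and the sequences are shown because such copies bear on how reads can be assigned. The adult α-globin genes Hba-a1 and Hba-a2 differed at 1 of 426 coding bases, in the last position of a codon, and the adult β-globin genes Hbb-bt and Hbb-bs at 1 of 441, also in the last position of a codon. Apol9a and Apol9b differed at 14 of 930 coding bases (98.5% identical), with 446 identical bases in the longest run without a difference. Of these differences, 4 fell on the first, 5 on the middle and 5 on the last position of a codon. For each pair, the 90 coding bases with the most differences are shown here from the GENCODE M21 transcripts, counted from the first base of the start codon, with the differing bases in capitals. They are bases 490 to 579 of the Apol9 genes, with 7 of the 14 differences.
Apol9a: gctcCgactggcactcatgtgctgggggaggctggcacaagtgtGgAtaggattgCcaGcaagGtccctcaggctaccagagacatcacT
Apol9b: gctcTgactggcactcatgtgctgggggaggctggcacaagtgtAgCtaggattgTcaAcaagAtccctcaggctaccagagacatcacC
For the α-globin genes, bases 292 to 381 hold the only difference in the coding sequence, at the last base shown.
Hba-a1: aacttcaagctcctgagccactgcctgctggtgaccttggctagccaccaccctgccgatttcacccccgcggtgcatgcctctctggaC
Hba-a2: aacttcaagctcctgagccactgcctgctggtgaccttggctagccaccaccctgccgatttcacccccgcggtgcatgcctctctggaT
For the β-globin genes, bases 328 to 417 likewise end with the only coding difference.
Hbb-bt: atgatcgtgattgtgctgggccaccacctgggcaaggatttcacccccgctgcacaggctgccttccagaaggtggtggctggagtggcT
Hbb-bs: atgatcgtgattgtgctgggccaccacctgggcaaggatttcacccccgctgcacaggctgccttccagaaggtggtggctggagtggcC

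Outside the coding sequence, the Apol9 genes were also alike before their start sites. In the RefSeq promoters of GRCm38.p6, which run from 250 bases before to 50 bases after a start site, the windows of Apol9a and Apol9b overlapped over 232 to 281 aligned bases, depending on which of the annotated starts were paired, and were identical at every aligned base. Both hold the interferon-stimulated response element, which is bound by interferon-activated factors and was searched as GAAA, any 2 bases and GAAA again. Each promoter has 2 overlapping matches, both read on the opposite strand. The 120 bases around these matches lie at chr15:77411072-77411191 (minus strand) for Apol9a and at chr15:77728983-77729102 (plus strand) for Apol9b, and are shown with the 16 bases of both matches in capitals.
Apol9a: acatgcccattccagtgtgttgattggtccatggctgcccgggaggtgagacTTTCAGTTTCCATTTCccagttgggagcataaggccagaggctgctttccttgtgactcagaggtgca
Apol9b: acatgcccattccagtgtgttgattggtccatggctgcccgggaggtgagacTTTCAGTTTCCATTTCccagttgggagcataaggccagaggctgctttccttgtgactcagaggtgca
This element, searched on both strands, occurs in 1131 of 32851 promoters (3.44%). Among the 8 of the 10 genes with a promoter in the table, it was found in Apol9a and Apol9b. The GATA element AGATAA was found in Alas2 and in 11.2% of all promoters. The STAT motif TTCNNNGAA was found in Lrp1 and in 8.30% of all promoters. The antioxidant response element TGACNNNGC was found in Hbb-bt, Hpx and Lrp1 and in 12.4% of all promoters. A match is a description of the letters and was not tested as a binding site. Hp and Hmox1 are the genes without an entry.

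The genes of the plasma proteins that bind hemoglobin and heme had by far the highest levels of the set per kilobase of exon. Hpx had a mean normalized count of 35235, which is 23506 per kilobase of exon, and only 17 of the 11754 genes with an exon length stood above it on that scale. Hp had a mean normalized count of 31830, or 19819 per kilobase, rank 22 of the same genes. The median of all listed genes was 51.5 per kilobase, so the levels of Hpx and Hp were 456 and 385 times the median. Hpx was above Hp per kilobase of exon by a ratio of 1.19, whereas per kilobase of coding sequence Hp stood above Hpx, with 30576 against 25533. Their order therefore depends on the length used. Both lay within the range of 10 hepatocyte markers, which ran from 4262 per kilobase for Serpina1c to 519843 for Alb, the gene of serum albumin. All 10 hepatocyte markers were listed and above the median of all genes.

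The receptor genes Lrp1 and Cd163 stood far apart in level. Lrp1 had a mean normalized count of 21886, or 1235 per kilobase of exon, which is 24.0 times the median of all genes. Among 14 listed scavenger receptors, Lrp1 was the highest, and Scara5 was lowest with 3.37 per kilobase. Cd163 had a mean normalized count of 224, or 41.1 per kilobase, so that 43.1% of genes stood below it. On the per-kilobase scale the level of Lrp1 was 30.1 times that of Cd163.

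The RNA levels of the binding proteins stood above those of the receptors. Hp stood 483 times above Cd163 per kilobase of exon, and Hpx 19.0 times above Lrp1. Without scaling by length the ratios were 142 and 1.61. Protein levels were not measured. CD163 is a macrophage protein, and in bulk liver RNA fewer macrophages and less Cd163 RNA per macrophage cannot be told apart. All 11 Kupffer cell markers were listed, from 55.4 per kilobase for Timd4 to 791 for Clec4f, and all 11 stood above Cd163 on that scale. Without scaling by length, Timd4 (120), Cd68 (156) and Adgre1 (194) were below Cd163 (224).

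**Figure D1:**
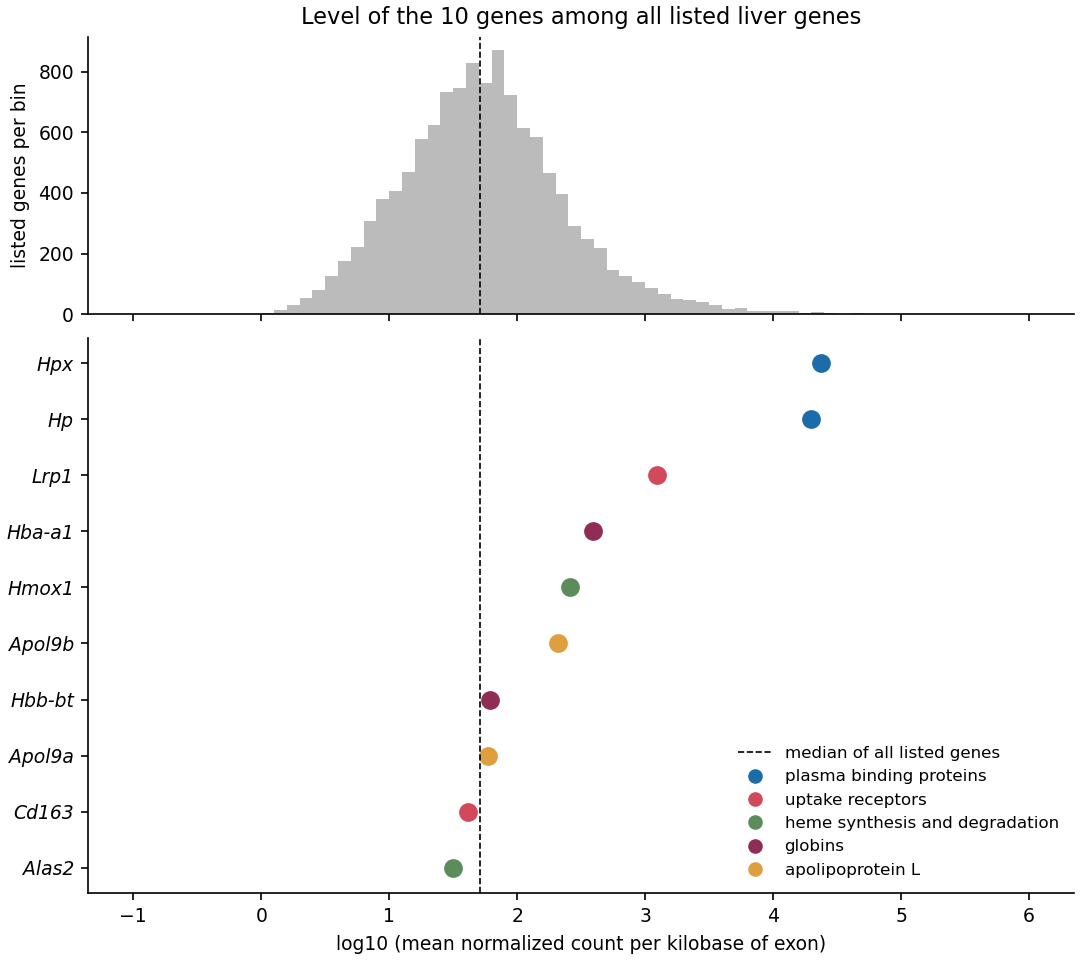
Level of each of the 10 genes (lower panel, points, coloured by role) on the same log10 axis as the distribution of all listed genes with an exon length (upper panel, genes per bin of the axis); the axis is the log10 of the mean normalized count per kilobase of exon and the dashed line is the median of all listed genes. Hpx and Hp lie far to the right, Lrp1 follows, and Cd163 and Alas2 are the genes to the left of the median.

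The synthases of the first step of heme synthesis stood far apart in level. Alas2, the erythroid form of 5-aminolevulinate synthase, which makes the first committed precursor of heme, had a mean normalized count of 76.1, or 31.7 per kilobase of exon. Its housekeeping counterpart Alas1, the main form in hepatocytes, had 14792, or 2396 per kilobase, which is 75.7 times the level of Alas2. Per kilobase of coding sequence the ratio was 171. Alas2 was the lowest and Alas1 the highest of the 9 heme synthesis genes, all of them listed, 7 of which were above the median of all genes. Alas2 also overlaps Apex2 on the opposite strand in the annotation, and 11.0% of its distinct 50-mers (stretches of 50 bases) were held by Apex2 transcripts. The libraries were made with a directional kit, but the strand setting of the counting is not given in the sources used here.

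Hmox1, the inducible heme oxygenase, had a mean normalized count of 452, or 258 per kilobase of exon, which is 5.02 times the median of all genes. Hmox2, the constitutive form, had 353, or 159 per kilobase, a ratio of 1.62 between them, and no spread is known against which to judge it. All 5 genes of heme breakdown were listed, from 31.8 per kilobase for Blvra, a biliverdin reductase, to 1483 for Ugt1a1, which conjugates bilirubin. The 8 heme transport genes ran from 10.7 per kilobase for Abcb6 to 4833 for Pgrmc1, a heme-binding membrane protein, and 4 of them were above the median.

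Both globin genes of the set stood above the median of all listed genes per kilobase of exon and below the 10 hepatocyte markers. Hba-a1, an adult α-globin gene, had a mean normalized count of 316, or 389 per kilobase of exon, rank 1037 of 11754 genes. Hbb-bt, an adult β-globin gene, had 42.8, or 60.9 per kilobase, and 54.6% of genes stood below it, against 35.5% per kilobase of coding sequence. The ratio of Hba-a1 to Hbb-bt was 6.39 per kilobase of exon. Of 13 globin genes, 3 were among the listed genes, the third being Cygb, the gene of cytoglobin, at 30.5 per kilobase. The near-identical copies Hba-a2 and Hbb-bs were not among the listed genes, so they have no level here.

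Of 16 erythroid genes, 5 were listed, and all 5 were below the median of all listed genes per kilobase of exon. They ran from 2.46 per kilobase of exon for Sptb, an erythrocyte spectrin, to 41.1 for Bpgm, which makes 2,3-bisphosphoglycerate. Between these, Car1 stood at 15.9, Klf1 at 21.6 and Alas2 at 31.7 per kilobase. Slc4a1, the anion exchanger of the red cell membrane and a defining erythroid marker, was not among the listed genes, which is no measure of its level. Whether blood left in the tissue contributed to these globin levels was not tested.

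**Figure D2:**
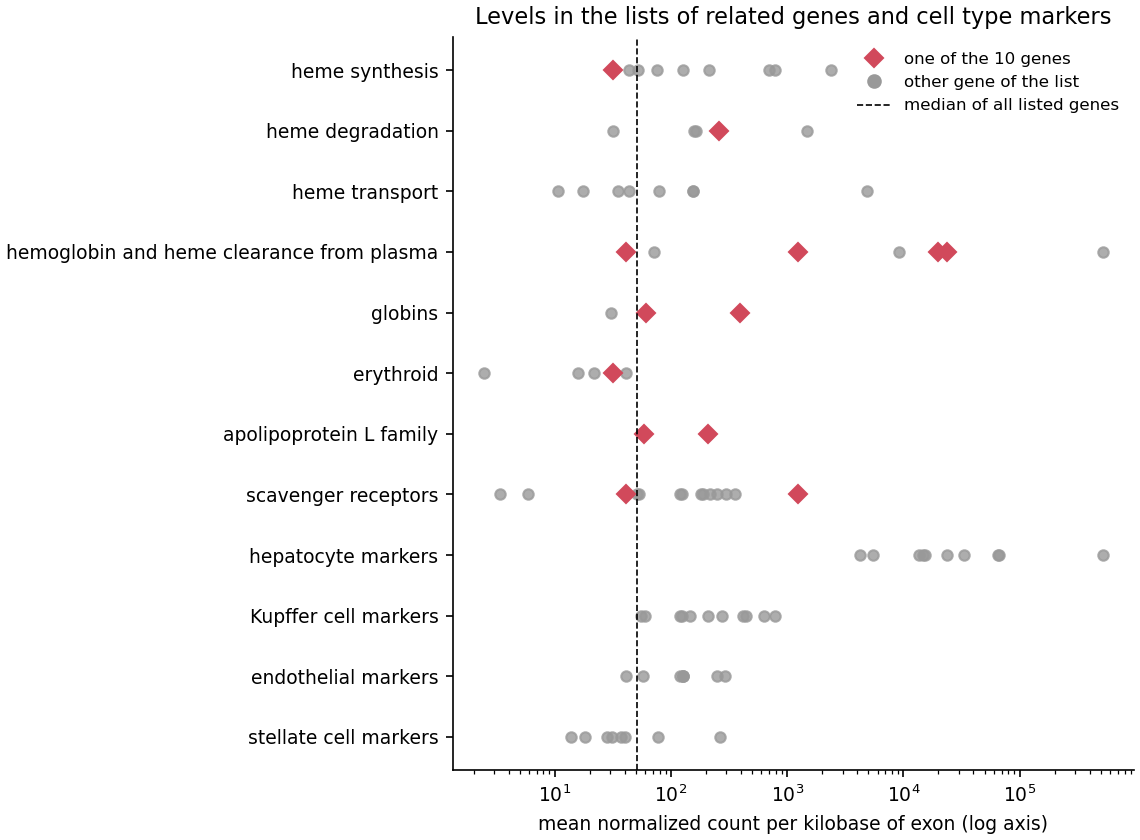
Mean normalized count per kilobase of exon (log axis) of every listed gene in each list, with the 10 genes as diamonds, the other genes as grey points and the median of all listed genes as a dashed line. Lrp1 is the highest of the scavenger receptors, Alas2 is the lowest of the heme synthesis genes, and each of the 5 erythroid genes lies left of the line.

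The sequence shared between copies bears on these globin and Apol9 levels. STAR's gene counting takes reads that map to a single place, so a read that fits both copies equally well is left out. Of the distinct 50-mers in the annotated transcripts of Hba-a1, 72.3% were also held by another gene, all of them by Hba-a2, and 211 of 761 were its own. For Hba-a2 the share was 89.3%, which left 66 of 616 as its own. In Hbb-bt, 58.3% of 50-mers were shared with Hbb-bs, and in Hbb-bs 53.2% were shared with Hbb-bt. The genes of each globin pair lie close together: 0 annotated genes separate Hbb-bt from Hbb-bs, and 1, Hbq1b, separates Hba-a1 from Hba-a2. The transcripts come from the C57BL/6J reference, whereas the mice were Balb/c, so the shares of 50-mers describe the reference. Differences between the strains in these genes were not tested, and the globin levels may depend on them.

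The binding proteins, Hmox1 and Lrp1 shared no sequence of that length with other genes. For Hp, Hpx, Hmox1 and Lrp1 the share was 0, and for Cd163 it was 0.109%. Values for 36, 75 and 100 bases gave the same division, with Hba-a1 between 63.3% and 74.6% and Hbb-bt between 54.8% and 59.1%.

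**Figure D3:**
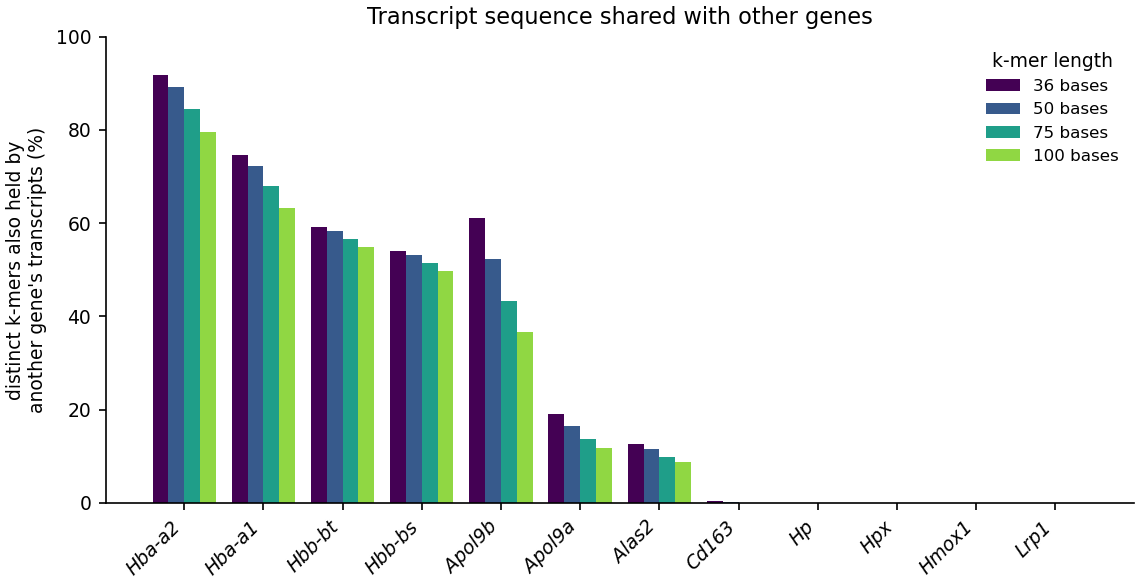
Percentage of the distinct stretches of 36, 50, 75 or 100 bases (bars) in each gene's annotated transcripts that transcripts of another gene also hold, for the 10 genes and the globin copies Hba-a2 and Hbb-bs. The α-globin genes have the tallest bars, Apol9b stands above Apol9a, and Hp, Hpx, Hmox1 and Lrp1 are at 0.

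Apol9a and Apol9b had similar mean normalized counts, 352 and 378. The ratio of Apol9b to Apol9a was 1.08 per kilobase of coding sequence, which is 930 bases in both genes. Per kilobase of exon, however, Apol9b had 208 and Apol9a 59.1, a ratio of 3.52. The annotated exons of Apol9a cover 5953 bases and those of Apol9b 1821, and Apol9a-203, a transcript with a retained intron, is alone 4246 bases long. Of the distinct 50-mers of Apol9b, 52.3% were shared with Apol9a, against 16.5% of those of Apol9a. The genes share chromosome 15 with 17 annotated genes between them.

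Relative to 50-mers that no other gene holds, Apol9b stood at 426 and Apol9a at 71.3 per 1000, a ratio of 5.97. With 36-mers the values were 526 and 73.4, and with 100-mers 320 and 68.0. The copies could thus be placed at nearly the same level or several times apart from the same pair of means. Of 13 apolipoprotein L genes, 3 were listed, and the third, Apol7a, had a mean normalized count of 635, or 210 per kilobase of exon. All 3 were above the median of all genes per kilobase of exon.

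**Figure D4:**
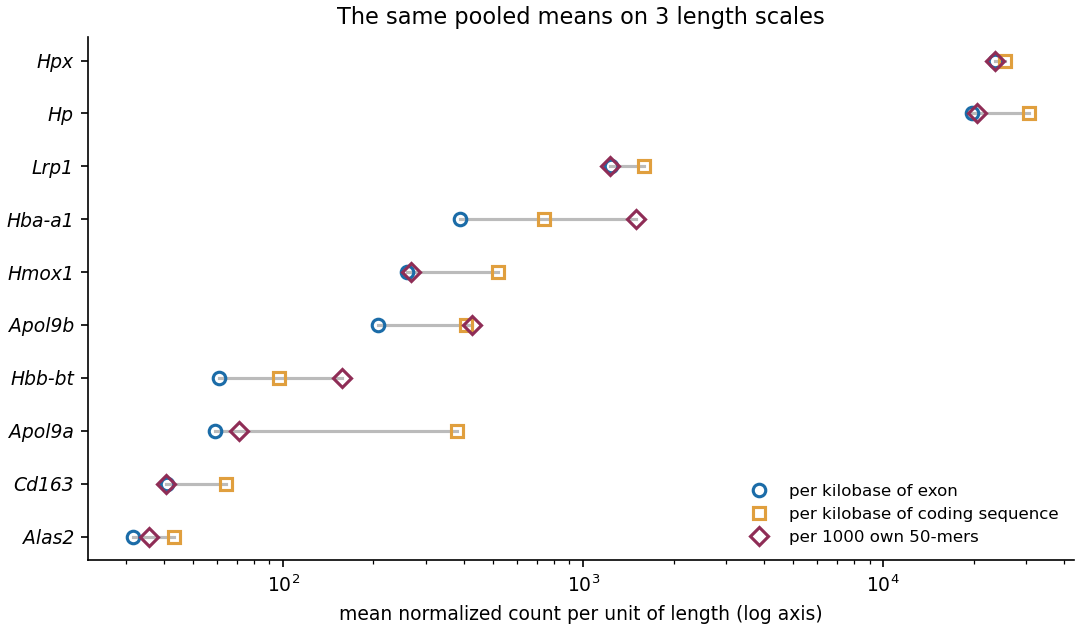
The mean normalized count of each gene divided by 3 measures of its length (log axis): kilobases of exon (circles), kilobases of coding sequence (squares) and 50-mers that no other gene's transcripts hold (diamonds, per 1000). Hpx, Lrp1 and Alas2 move by less than 1.5 times, and Apol9a shifts most between exon and coding length. For Hba-a1, Hbb-bt and, by a small margin, Apol9b the diamond is the mark farthest to the right.

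As a whole, the 10 genes held 0.804% of the summed mean normalized counts of all listed genes. Hpx, Hp and Lrp1 made up 98.0% of that, and the remaining 7 genes had a summed mean of 1842. Between Hpx and Alas2 the levels per kilobase of exon spanned 742-fold. Per kilobase of exon, 8 of the 10 genes were above the median of all listed genes, the exceptions being Cd163 and Alas2.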

How the data were processed

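Liver libraries were aligned by the authors with STAR 2.5.3a and its own gene counting on an Ensembl annotation; the genome build is not given in the sources used here. Per the labels and the file headers, the authors used DESeq2 and RLE normalization, and deposited for each gene a signal, the mean normalized count over the compared liver libraries. The table also holds the authors' own comparison (log2 fold change, standard error, Wald statistic, p-value and adjusted p-value), which was not used.

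Symbols and gene identifiers of all 10 genes matched GENCODE M21 (GRCm38). Exon and coding lengths are unions over all annotated transcripts, known for 11754 and 11384 of 11779 genes. Distinct k-mers of each gene were compared with all annotated transcripts on either strand. The k-mer lengths were chosen here and not taken from the read length, and levels per own k-mer depend on them. Promoters were taken from RefSeq (GRCm38.p6) and aligned with Biopython 1.88. Python 3.11.15, numpy 2.4.6, pandas 2.3.3 and matplotlib 3.10.9 were used, and the length, rank and k-mer steps were tested on simulated data. No test between groups was possible. The genes and lists were chosen with earlier results of these data known. Named were the 10 genes, the highest and lowest listed gene of each list, and listed relatives of the 10 genes. Also named were all listed erythroid genes, the Kupffer cell markers with a mean below that of Cd163, and Slc4a1 as a defining marker. A few results are not reported here.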

Additional observations from a re-analysis of the deposited data

How the results depend on the processing

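The number of the 10 genes above the median of all listed genes was 8 per kilobase of exon, 7 without scaling by length, 7 per kilobase of coding sequence, and 6 with the median taken only over genes whose mean reached 50. Hbb-bt is the gene that changed sides without scaling and per coding kilobase. The share of the summed means was 0.804%, rising to 0.999% without the 10 most abundant genes, 0.901% without Alb, and 0.807% among genes whose mean reached 50. Per coding kilobase, 7 of the 10 levels moved by over 1.5 times, and per own 50-mers 3 did (Hba-a1, Hbb-bt and Apol9b). The coding lengths, the denominator without Alb, and the k-mer scale were chosen after seeing the data; lengths from RefSeq proteins were not used, and no globin copies were listed that could be added. No paired analysis was possible because the only values are means over both groups, and for the same reason no mouse could be left out. Depth is unknown, so the precision of low levels such as those of Hbb-bt and Alas2 is unknown too.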

Other observations

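The order of the 10 genes depends on the length scale in a few places. Per own 50-mers, Hba-a1 stood at 1498 per 1000 and Lrp1 at 1225, whereas per kilobase of exon Lrp1 was above Hba-a1. Hba-a1 was also above Lrp1 with 36-mers (1604 against 1228) and 75-mers (1339 against 1220). With 100-mers it was just below, at 1211 against 1216, so this order depends on the k-mer length. Per own 50-mers Hbb-bt stood at 157, above Apol9a with 71.3, from which it was barely separated per kilobase of exon. Among the cell type lists, 7 of 8 endothelial markers and 2 of 8 stellate cell markers were above the median of all listed genes per kilobase of exon, with the highest levels for Clec4g (289) and Dcn (265).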
